A study of Mus musculus with 16 samples.

Results

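The 6 genes described here, Fga, Fgb, Fgg, Saa1, Saa2 and Orm1, encode secreted plasma proteins of the acute-phase response. They were taken by their symbols, and all 6 of 6 were among the 13320 genes of the deposited count table of quadriceps muscle. The libraries came from male CD2F1 mice, 8 weeks old at the start, in 4 groups of 4. The splenic C26 mice had received C26 colon carcinoma cells into the spleen, a route that seeds the liver, and the sham mice had an operation and saline. The subcutaneous C26 mice had the same cell line placed beneath the skin, and how the control mice were handled is not stated. The number of weeks between injection and sampling is not given in the sources used here, and C26 is a single transplanted cell line, so both tumour groups model that line. Splenic C26 and sham titles begin alike, and so do subcutaneous C26 and control titles, with a second prefix. Each tumour group was therefore set against the tumour-free group of its own prefix, and in sham against control the prefix and the group cannot be told apart. Whether each library is its own animal is not stated, so p-values reflect only the scatter between libraries, part of which may be technical.

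Fibrinogen, the soluble precursor of the fibrin clot, is assembled in hepatocytes from alpha, beta and gamma chains, the products of Fga, Fgb and Fgg. Saa1 and Saa2 encode serum amyloid A1 and A2, small apolipoproteins of high-density lipoprotein whose synthesis in the liver climbs steeply when interleukin-6 and interleukin-1 act on hepatocytes. Orm1 encodes alpha-1-acid glycoprotein (orosomucoid 1), a drug- and lipid-binding plasma protein made in liver and also in fat tissue. Alb encodes albumin, the most abundant plasma protein, whose production in the liver declines in an acute-phase response, and it served as the measure of liver-type transcripts in each library.

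The fibrinogen genes are neighbours on mouse chromosome 3 (mm10, GENCODE M21). Fgg spans 83007724 to 83015049 and Fga 83026076 to 83033627 on the plus strand, and Fgb spans 83040141 to 83049863 on the minus strand. Saa1 (46740497 to 46742980, minus strand) and Saa2 (46751790 to 46754313, plus strand) lie head to head on chromosome 7, and Orm1 (63344560 to 63348163, plus strand) lies on chromosome 4. The 250 bases before the RefSeq start (GRCm38.p6) were available for 5 of the 6 genes. Those of Fga and Fgb are printed because the fibrinogen chains moved together yet in changing proportions, and those of Saa1 and Saa2 because their levels correlated across libraries. Each is given 5′ to 3′ on the strand of its gene, and capitals mark the letters of a motif found on either strand.
Fga (chr3:83025903-83026152, plus strand): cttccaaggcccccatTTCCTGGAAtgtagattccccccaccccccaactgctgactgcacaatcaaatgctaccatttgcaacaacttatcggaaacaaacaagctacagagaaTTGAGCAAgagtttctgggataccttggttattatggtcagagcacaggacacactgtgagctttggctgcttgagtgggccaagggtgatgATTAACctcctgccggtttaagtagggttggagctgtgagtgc
Fgb (chr3:83049864-83050113, minus strand): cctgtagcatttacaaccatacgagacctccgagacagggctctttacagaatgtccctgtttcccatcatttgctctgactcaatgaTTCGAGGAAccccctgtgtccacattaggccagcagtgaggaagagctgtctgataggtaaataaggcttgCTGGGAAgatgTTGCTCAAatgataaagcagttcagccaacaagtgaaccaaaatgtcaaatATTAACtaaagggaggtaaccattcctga
Saa1 (chr7:46742981-46743230, minus strand): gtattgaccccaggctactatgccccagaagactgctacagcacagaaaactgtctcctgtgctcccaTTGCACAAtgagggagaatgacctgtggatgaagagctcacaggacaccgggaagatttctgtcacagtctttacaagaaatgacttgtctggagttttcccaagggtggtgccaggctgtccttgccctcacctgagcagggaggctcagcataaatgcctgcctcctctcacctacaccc
Saa2 (chr7:46751583-46751832, plus strand): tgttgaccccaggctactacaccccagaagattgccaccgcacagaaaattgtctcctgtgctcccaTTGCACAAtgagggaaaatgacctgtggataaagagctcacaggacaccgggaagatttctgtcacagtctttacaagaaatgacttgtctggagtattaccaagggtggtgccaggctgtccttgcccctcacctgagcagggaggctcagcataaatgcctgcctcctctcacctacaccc

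In the Fga sequence the capitals mark, from left to right, the STAT motif TTCNNNGAA at positions -234 to -226 from the start, the C/EBP motif TTGCNNAA on the opposite strand and the HNF1 motif GTTAAT on the opposite strand. In the Fgb sequence they mark the STAT motif at positions -162 to -154, the type II acute-phase element CTGGGAA, the C/EBP motif and the HNF1 motif on the opposite strand, and no motif overlapped another. The Fgg window held the letters CTGGGAA alone among those searched, and the Alb window held the C/EBP motif and the HNF1 motif. Both Saa windows held the C/EBP motif, as the letters TTGCACAA, and over 249 aligned bases they were 95.6% identical, against 55.1% to 55.8% for the pairs of fibrinogen windows. Among 10122 promoters of the same length the STAT motif was found in 6.13%, the C/EBP motif in 7.58%, the HNF1 motif in 3.66%, CTGGGAA in 9.56% and the NF-kB consensus, which none of the windows named here held, in 8.66%. These matches describe the letters only. The RefSeq table names Saa1 and Saa2 as synonyms of each other, and the symbols are used here as the count table has them. Their transcripts were 94.4% identical when aligned, but only 0.374% of the 75-base stretches of Saa1, the read length of the study, also occurred in Saa2. Orm1 shared 13.8% of its 75-base stretches with Orm2, which was not in the table used here, so its counts are less certain, and Fgg overlaps the predicted gene Gm30097.

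Levels are given in CPM, read counts scaled to a common library size after TMM normalisation (edgeR's scaling factors). Libraries held 25.9 to 34.9 M counts, so that 1 count was worth 0.0256 to 0.047 CPM and the floor of 3 counts 0.0768 to 0.141 CPM. All 10 markers of skeletal muscle fibres were measured, and their sum was 98500 to 247000 CPM per library. Every gene of the table exceeded 0.5 CPM, before TMM scaling, in at least 4 libraries. After TMM scaling Orm1 met that level in 16 libraries, Fga in 10, Fgb and Saa1 in 9, and Fgg and Saa2 in 8. The chain genes met it in 4 control and 0 sham libraries, and Saa1 and Saa2 in 1 control and 0 sham libraries. Saa1 met it in 4 splenic C26 and 4 subcutaneous C26 libraries, and Saa2 in 3 and 4. In splenic C26 replicate 1 Saa2 was near the level, at 0.479 CPM after that scaling. Saa1 and Saa2 thus entered the table mainly through tumour libraries, so calls of these genes and counts of them are a description. The chain genes met the level in every control library and in no sham library, so their calls and overlaps are likewise a description. Liver-type transcripts stood out in 5 libraries. Alb was at 16.5 to 127 CPM in the 4 control libraries and at 76.2 CPM in splenic C26 replicate 1, against 0.0388 to 2.25 CPM in the other 11. The sum of 19 hepatocyte markers (the 21 measured of 24, less Cyp2e1 and Vtn) was 194 CPM in splenic C26 replicate 1 and 44.4 to 339 CPM in control libraries, with none of the 19 at 0 counts there. In the other 3 splenic C26 libraries it was 2.93 to 4.62 CPM with 7 or 8 markers at 0, in sham libraries 1.71 to 6.37 CPM with 2 to 13 at 0, and in subcutaneous C26 libraries 2.9 to 4.94 CPM with 2 to 9 at 0.

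**Figure D1:**
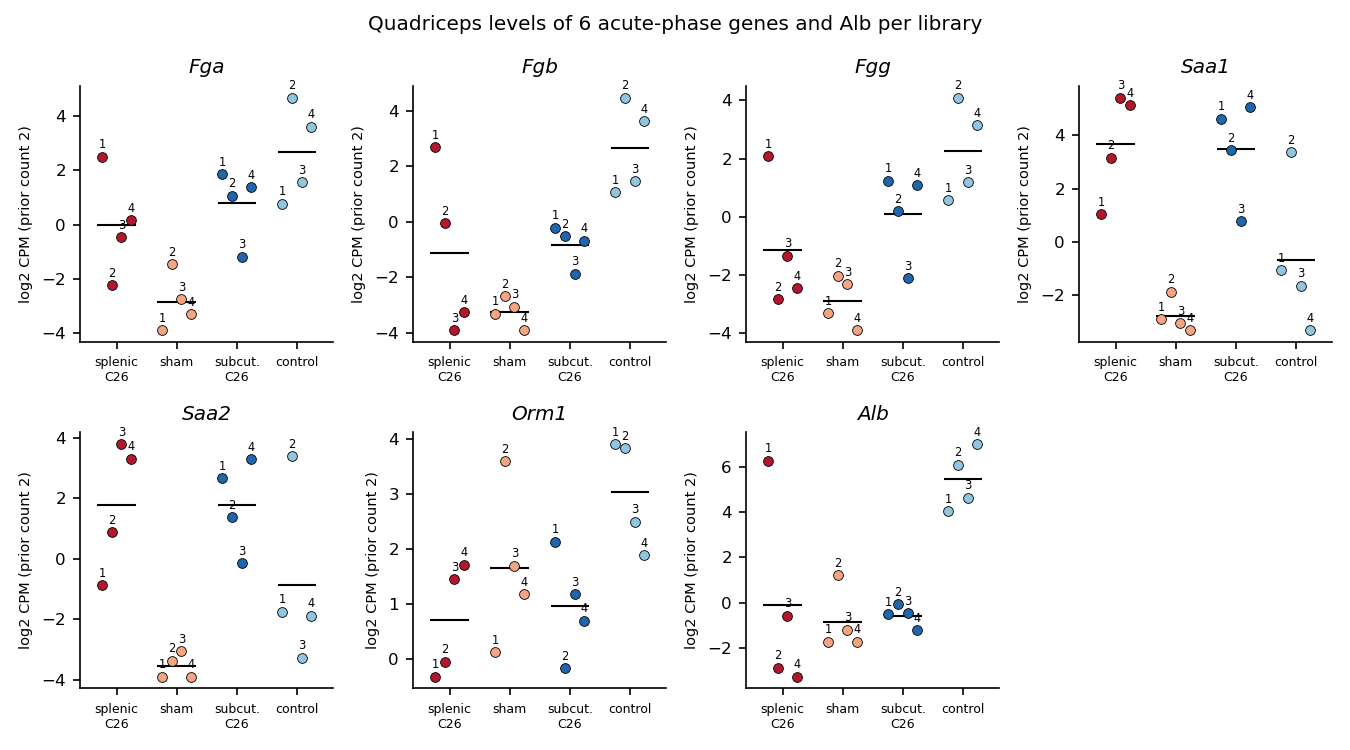
Level of each of the 6 acute-phase genes and of Alb in every library (log2 CPM with a prior count of 2), numbered by replicate, with the group mean as a bar. Saa1 and Saa2 are high in both tumour groups and in control replicate 2, and the fibrinogen genes are high where Alb is high, in the control group and in splenic C26 replicate 1.

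In muscle of mice with C26 cells in the spleen, Saa1 and Saa2 rose in every library relative to sham, the fibrinogen chain genes passed the test with, but not without, 1 library rich in liver transcripts, and Orm1 did not pass.

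Fga, the alpha chain gene, was measured at 5.62, 0.144, 0.658 and 1.05 CPM in the splenic C26 libraries 1 to 4, against 0, 0.296, 0.0803 and 0.0343 CPM in the sham libraries. Splenic C26 replicate 1 stood far above the rest of its group, and replicate 2 lay below the highest sham library, so the groups overlapped. By edgeR's quasi-likelihood test the log2 fold change of Fga was 4.10 ± 1.28 (SE) with an adjusted p of 0.0156. Fgb, the beta chain gene, gave 6.38, 0.903, 0 and 0.0388 CPM in splenic C26 and 0.0342, 0.0889, 0.0536 and 0 CPM in sham. Only replicates 1 and 2 of splenic C26 exceeded all sham libraries, and the log2 fold change was 5.23 ± 1.53 (adjusted p = 0.0111). For the gamma chain gene Fgg the splenic C26 libraries had 4.15, 0.0722, 0.329 and 0.116 CPM and the sham libraries 0.0342, 0.178, 0.134 and 0 CPM. Replicates 2 and 4 of splenic C26 fell inside the sham range, and the log2 fold change was 3.66 ± 1.38 (adjusted p = 0.0366). All 3 chain genes thus passed as higher in splenic C26, but without splenic C26 replicate 1, the library with Alb at 76.2 CPM, none did. The values then were 2.47 for Fga (adjusted p = 0.116), 2.76 for Fgb (adjusted p = 0.121) and 0.82 for Fgg (adjusted p = 0.644). The call of Fgg was also lost without any 1 of the 4 sham libraries (adjusted p between 0.0531 and 0.0821). Fewer cells of a type and less RNA per cell cannot be told apart in these bulk samples.

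The serum amyloid genes differed from the chain genes in which libraries carried them. Saa1 was at 1.98, 8.88, 42.6 and 34.7 CPM in splenic C26 and at 0.0683, 0.207, 0.0536 and 0.0343 CPM in sham. Every splenic C26 library lay above every sham library, and replicate 1, the highest for the chain genes, was the lowest for Saa1. In counts, the splenic C26 group held 2110 reads of Saa1 and the sham group 12, and the log2 fold change was 7.83 ± 1.72 (adjusted p = 0.00212). Saa2 followed with 0.479, 1.77, 13.7 and 9.78 CPM in splenic C26, against 0, 0.0296, 0.0536 and 0 CPM in sham. Again the groups did not overlap and replicate 1 was lowest. The splenic C26 group held 608 reads of Saa2 and the sham group 3, which put the fold between the groups, per total count and for counting error alone, at 247 (95% interval 84.3 to 1200). Its log2 fold change was 7.88 ± 2.00 (adjusted p = 0.00493). Without splenic C26 replicate 1 both calls held, at 8.22 for Saa1 (adjusted p = 0.000781) and 8.28 for Saa2 (adjusted p = 0.00239). Orm1 had 0.734, 0.903, 2.68 and 3.22 CPM in splenic C26 and 1.02, 12.1, 3.19 and 2.19 CPM in sham. These ranges overlapped, and its log2 fold change of -1.31 ± 0.75 did not pass (adjusted p = 0.151).

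Of the 6 genes, 5 were called higher and 0 lower in splenic C26 than in sham. Over all genes tested 28.1% were called higher and 23.9% lower, and the median log2 fold change was 4.66 for the 6 genes and -0.0287 for all genes. Only Saa1 and Saa2 had groups that did not overlap, a pattern that 21.1% of all genes showed in that direction. Alb itself was called higher in splenic C26 (log2 fold change 4.61 ± 1.62, adjusted p = 0.0269), on 2389 counts in replicate 1 against 1 to 13 counts in replicates 2 to 4 and 7 to 76 in sham. Without replicate 1 its sign turned, to -1.83 (adjusted p = 0.21). Of the 21 hepatocyte markers 17 were called higher and 0 lower in this comparison, and their part in the fibrinogen calls was not tested.

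**Figure D2:**
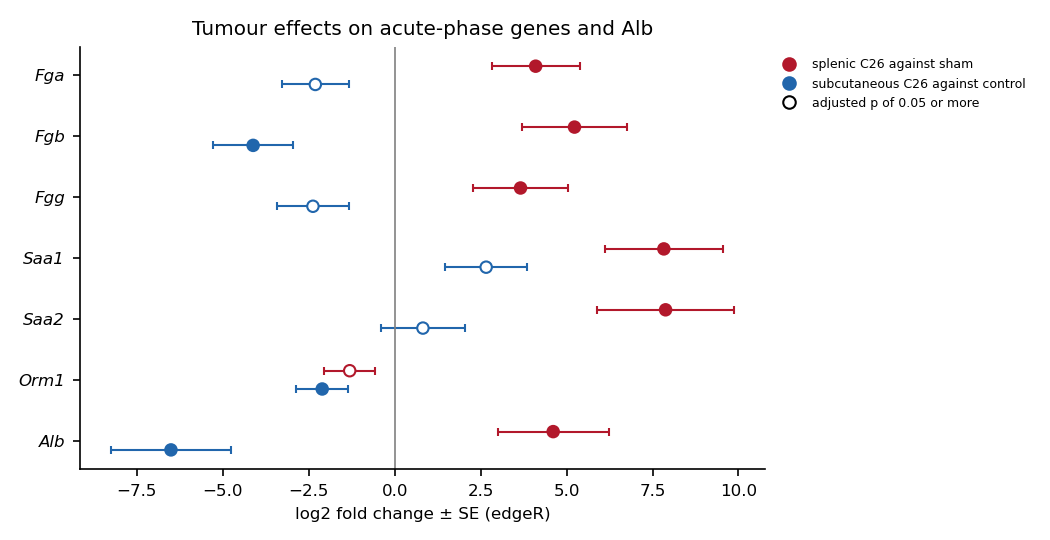
Log2 fold change ± SE (edgeR) of the 6 genes and of Alb in splenic C26 against sham and in subcutaneous C26 against control, with open circles for an adjusted p of 0.05 or more. The chain genes and Alb lie right of 0 in the splenic C26 comparison and left of 0 in the subcutaneous C26 comparison, whereas Saa1 and Saa2 lie right of 0 in both.

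With the tumour under the skin, Fgb and Orm1 fell relative to control muscle, and Fga, Fgg, Saa1 and Saa2 did not pass the test. Fgb was at 0.796, 0.635, 0.207 and 0.555 CPM in subcutaneous C26 libraries 1 to 4, against 2.02, 22.1, 2.69 and 12.3 CPM in control libraries. The groups did not overlap, and the log2 fold change was -4.12 ± 1.17 (adjusted p = 0.00962). Fga was at 3.57, 2.03, 0.373 and 2.56 CPM in subcutaneous C26 and at 1.64, 25.8, 2.91 and 12.2 CPM in control. Here replicates 1, 2 and 4 of subcutaneous C26 exceeded control replicate 1, and the log2 fold change of -2.31 ± 0.98 did not pass (adjusted p = 0.061). Fgg, with 2.29, 1.08, 0.166 and 2.04 CPM in subcutaneous C26 and 1.41, 17, 2.22 and 8.74 CPM in control, overlapped in the same way. Its log2 fold change was -2.38 ± 1.05 (adjusted p = 0.0713). Orm1 was at 4.33, 0.825, 2.19 and 1.56 CPM in subcutaneous C26, against 15, 14.2, 5.59 and 3.66 CPM in control. It was called lower, with a log2 fold change of -2.11 ± 0.75 (adjusted p = 0.0292), although subcutaneous C26 replicate 1 exceeded control replicate 4. It did not pass when control replicate 1 (adjusted p = 0.0722), control replicate 2 (0.0685), subcutaneous C26 replicate 2 (0.08) or subcutaneous C26 replicate 4 (0.0702) was left out, at log2 fold changes between -2.01 and -1.84.

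Saa1 was at 24.7, 10.8, 1.66 and 33 CPM in subcutaneous C26 and at 0.41, 10.3, 0.254 and 0.0339 CPM in control. Control replicate 2, a tumour-free library, thus matched the levels of tumour-bearing muscle, and the other 3 controls lay below every subcutaneous C26 library. With all libraries the log2 fold change was 2.66 ± 1.20 (adjusted p = 0.0772), and without control replicate 2 it was 6.14 (adjusted p = 0.00298). Without subcutaneous C26 replicate 3, the lowest of its group, the gene passed as well (3.04, adjusted p = 0.0399). Saa2 was at 6.27, 2.51, 0.828 and 9.67 CPM in subcutaneous C26, against 0.231, 10.4, 0.0363 and 0.203 CPM in control. Control replicate 2 was the highest of all 8 libraries for this gene. The log2 fold change was 0.82 ± 1.21 (adjusted p = 0.589) with all libraries and 4.84 without control replicate 2 (adjusted p = 0.0071). Control replicate 2 also held the most Fga, Fgb and Fgg counts of any library, with Alb at 67.7 CPM, while control replicate 4, with the most Alb (127 CPM), held 1 count of Saa1 and 6 of Saa2.

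Over the 6 genes, 0 were called higher and 2 lower in subcutaneous C26 than in control, beside 27.0% higher and 23.1% lower over all genes. Their median log2 fold change was -2.21, and that of all genes -0.0219. Fgb alone did not overlap between the groups, as did 20.7% of all genes in that direction. By unadjusted p under 0.05 the number was 5 of the 6, beside 7542 of all genes (56.6%), and DESeq2 called 2 of the 6 and 7083 of all genes. Alb was called lower (log2 fold change -6.51 ± 1.75, adjusted p = 0.00736), and of the 21 hepatocyte markers 18 were called lower and 1 higher. Among the 18 were Apoa1 (-5.36 ± 1.40) and Ttr (-7.91 ± 1.81), which encode an apolipoprotein and a thyroid hormone carrier. Genes of this kind could meet the level needed to enter the table through the 4 control libraries alone, so this count is a description. With the level of Alb added to the fit as a covariate, none of the 6 genes was called in this comparison, and the number over all genes was 967, against 6665 without the covariate. Alb itself did not overlap between these groups, at 0.37 to 0.889 CPM in subcutaneous C26 and 16.5 to 127 CPM in control, so this fit can hardly separate Alb from the group. In it the log2 fold change was -0.82 for Fgb (adjusted p = 0.697) and -2.30 for Orm1 (adjusted p = 0.236).

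Set against Alb, the fibrinogen genes held 5.44 to 12.3 counts per 100 Alb counts in 4 of the 5 libraries with many liver-type transcripts. Per 100 Alb counts, splenic C26 replicate 1 held 7.37 counts of Fga (95% counting interval 6.29 to 8.59), 8.37 of Fgb and 5.44 of Fgg. Control replicates 1, 3 and 4 held 9.64 to 11.8 of Fga, 9.67 to 12.3 of Fgb and 6.89 to 9.0 of Fgg. Control replicate 2 stood above them with 38.1 of Fga (35.2 to 41.2), 32.6 of Fgb and 25.1 of Fgg. Splenic C26 replicate 1 lay below every control library for each chain gene, with a counting interval for Fgg of 4.53 to 6.49. The sham group as a whole, on 104 Alb counts, held 13.5 of Fga, 5.77 of Fgb and 11.5 of Fgg. For Fga every subcutaneous C26 library lay above every control, while for Fgb and Fgg subcutaneous C26 replicate 3 lay just below control replicate 2. The subcutaneous C26 libraries held 56.2 to 690 counts of Fga, 31.2 to 150 of Fgb and 25 to 550 of Fgg per 100 Alb counts. Their Alb counts were 10 to 28 per library, so each such ratio has a wide interval, for Fga of subcutaneous C26 replicate 3 from 21.9 to 135.

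Counts of Saa1 were set beside those of Alb in the same way. In splenic C26 replicates 2, 3 and 4, 246, 907 and 895 counts of Saa1 stood beside 2, 13 and 1 counts of Alb. In replicate 1, 62 counts of Saa1 stood beside 2389 of Alb, a ratio of 2.6 per 100 that lay within the control range of 0.0267 to 15.2. Subcutaneous C26 libraries held 250 to 8920 counts of Saa1 and 125 to 2610 of Saa2 per 100 Alb counts, against 0.147 to 15.3 of Saa2 in control.

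With a pseudocount of 0.5, the log2 ratio to Alb was higher in subcutaneous C26 than in control for all 6 genes, without overlap. The two-sided exact permutation p was 0.0286 for each, the smallest that 4 against 4 libraries allow. For Fgb and Fgg the lack of overlap rested on the pseudocount. Without it, subcutaneous C26 replicate 3 lay below control replicate 2, at 31.2 against 32.6 counts of Fgb per 100 Alb counts. For Fgg the values were 25 and 25.1. With a pseudocount of 0.1 the exact permutation p of Fgb was 0.0571. At 0.5 the log2 differences were 10.58 for Saa1, 9.12 for Saa2, 4.18 for Fga, 3.99 for Orm1, 3.87 for Fgg and 2.5 for Fgb. This pattern is no mark of the 6 genes, because 98.2% of all 13319 other genes showed it, with a median difference of 6.07, through the lower Alb of the subcutaneous C26 libraries. For 18 hepatocyte markers other than Alb, Cyp2e1 and Vtn the differences ran from -0.9 to 3.39 with a median of 0.9, and 4 did not overlap. Those markers were left out after their values were seen, and with them the 20 markers ran from -0.9 to 7.65. The differences of Saa1 and Saa2 lay above both ranges and that of Fgb within both, while those of Fga, Fgg and Orm1 lay above the narrower range and within the wider one. With the summed hepatocyte markers in place of Alb the sign turned for 4 of the 6, at -1.83 for Fga, -3.51 for Fgb, -2.14 for Fgg and -2.02 for Orm1. The sign held for Saa1 (4.57, exact permutation p = 0.0571) and Saa2 (3.11, exact permutation p = 0.114), but neither passed. Cyp2e1 and Vtn made up most of that sum in subcutaneous C26. Without them the values were 2.96 for Fga, 1.28 for Fgb, 2.65 for Fgg and 2.77 for Orm1. In splenic C26 against sham no ratio to Alb reached the threshold (exact permutation p of at least 0.114), and 0.00% of all genes had higher ratios without overlap. In that comparison the ratios within splenic C26 spread widely, with an SD of 3.27 for Fga and 6.43 for Saa1 on the log2 scale, against 0.82 and 0.73 in sham.

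**Figure D3:**
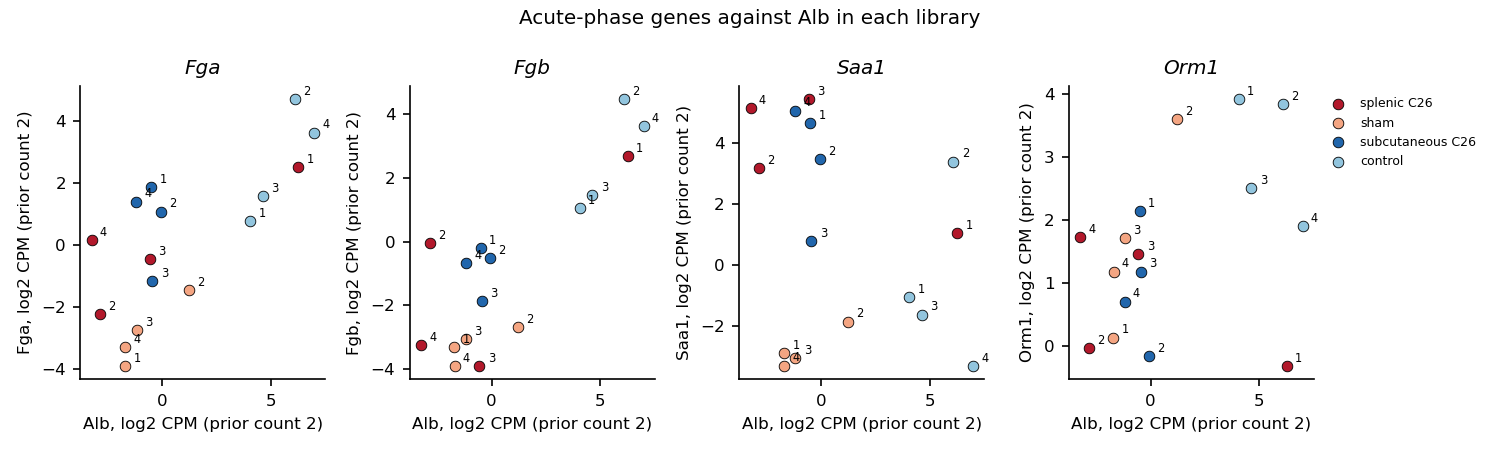
Fga, Fgb, Saa1 and Orm1 against Alb in each of the 16 libraries (both axes log2 CPM with a prior count of 2), coloured by group and numbered by replicate. Fgb lies near a single line with Alb in the control and sham groups and splenic C26 replicate 1, whereas the highest Saa1 levels are in tumour libraries at the low end of Alb and the lowest in sham libraries and control replicate 4.

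The 3 chains were not measured in fixed proportion. Of the fibrinogen counts of a library, Fgb took 12%, 16.9%, 27.8% and 10.8% in subcutaneous C26 libraries 1 to 4, on 209, 118, 18 and 139 counts. In control libraries it took 39.9%, 34.1%, 34.4% and 36.9%, on 198, 2193, 215 and 981 counts. The groups did not overlap, and Fga took 49.6% to 54.2% in subcutaneous C26 against 32.3% to 39.7% in control. Subcutaneous C26 replicate 3, on 18 counts, had 95% exact binomial intervals of 9.69 to 53.5 for Fgb and 26 to 74 for Fga. Both intervals cover the control shares. Splenic C26 replicate 1 resembled the controls, with Fgb at 39.5% (95% exact binomial interval 35.2 to 43.9) of 506 counts. The other splenic C26 libraries held few counts and scattered. In replicate 2, Fgb took 80.6% of 31 counts (62.5 to 92.5). In replicate 3 it took 0 of 21, which allows a share of up to 16.1% by the same kind of interval, and in replicate 4 it took 3.23% of 31 (0.0816 to 16.7). Shares of counts depend on transcript length, so they compare libraries and not the abundance of one chain with another. They were looked at after the values were known and are given without a test. In the amyloid pair, Saa2 took 16.6% to 33.3% of the summed Saa1 and Saa2 counts in all 8 tumour libraries. In control replicate 2 it took 50.1% (46.4 to 53.9) of 698 counts, above every tumour library, and in the other controls 12.5% to 85.7% of 7 to 25 counts.

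**Figure D4:**
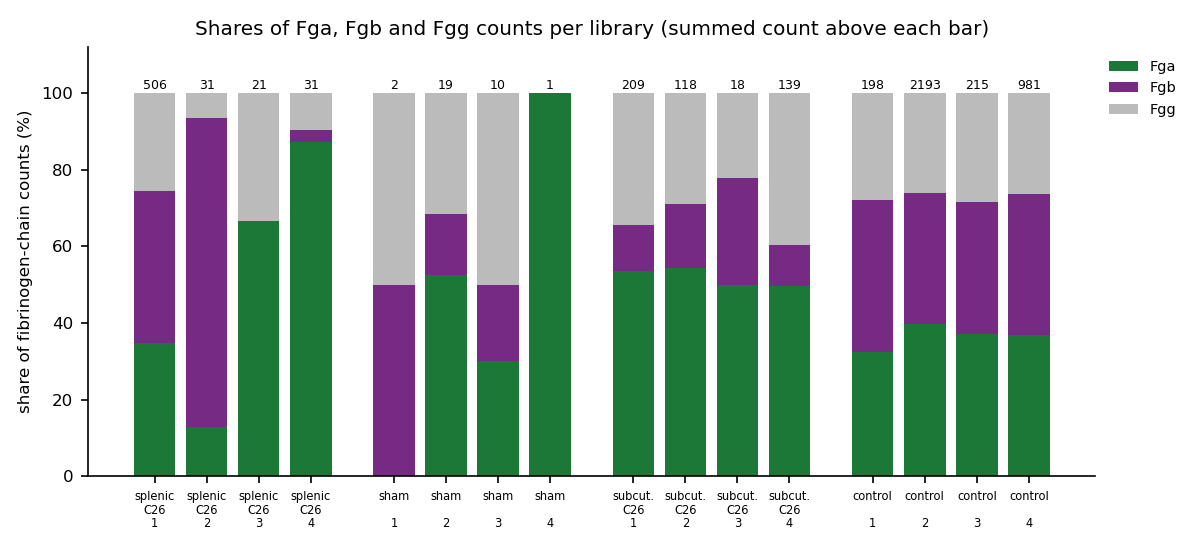
Share of Fga, Fgb and Fgg in the fibrinogen counts of each library in percent, with the summed count above each bar. Fgb takes 10.8% to 27.8% in subcutaneous C26 and 34.1% to 39.9% in control, and the sham bars rest on 1 to 19 counts.

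Both tumour-free groups were compared as well. Summed over the group, sham held 14 counts of Fga against 1376 in control, 6 of Fgb against 1262, and 12 of Fgg against 949. No sham library reached the lowest control library for any chain gene, a pattern shown by 2.39% of all genes. The chain genes met the 0.5 CPM level of the table in 4 control and 0 sham libraries, so this pattern is a description. Log2 fold changes of sham against control were -6.59 ± 1.31 for Fga (adjusted p = 0.145), -7.61 ± 1.53 for Fgb (adjusted p = 0.145) and -6.27 ± 1.38 for Fgg (adjusted p = 0.222). By edgeR none of the 6 genes was called, beside 1 of all 13320 genes (0.00751%), while 5 of the 6 and 285 of all genes had an unadjusted p under 0.05. DESeq2 called 58 genes, among them Fga, Fgb, Fgg and Saa2. Alb was lower by a like amount (-6.22 ± 1.71, adjusted p = 0.439), and the log2 ratio of Fga to Alb was -2.79 ± 0.82 in sham, on 14 Fga counts in all, and -2.79 ± 0.94 in control (SD, n = 4 each). The ratio of Orm1 to Alb was 2.65 ± 0.52 in sham and -2.41 ± 2.05 in control, without overlap (exact permutation p = 0.0286), and that of Saa1 -2.45 ± 0.73 in sham and -6.45 ± 3.59 in control (exact permutation p = 0.0571). Alb itself did not overlap, at 0.239 to 2.25 CPM in sham and 16.5 to 127 CPM in control. The share of all genes with such ratios was not computed, so these p-values are no mark of Orm1 or Saa1. Saa1 and Saa2 gave log2 fold changes of -4.84 ± 1.72 (adjusted p = 1) and -6.65 ± 2.01 (adjusted p = 0.699), both resting on control replicate 2, without which they were -1.36 and -2.62. For Orm1 the value was -1.06 ± 0.71 (adjusted p = 1).

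Between the tumour groups none of the 6 genes was called, nor was any of all genes by edgeR (0.00%), and none of the 6 had an unadjusted p under 0.05, against 1358 of all genes. DESeq2 called 163 genes, and 0 of the 6. Log2 fold changes of splenic C26 against subcutaneous C26 were 0.33 ± 1.11 for Saa1, 0.41 ± 1.20 for Saa2, -0.18 ± 0.97 for Fga, -0.23 ± 1.06 for Fgg, 1.74 ± 1.12 for Fgb and -0.26 ± 0.75 for Orm1. With errors of this size, differences of several log2 units in either direction cannot be told from none. The difference between the tumour effects, splenic C26 minus sham less subcutaneous C26 minus control, was largest among the 6 for Fgb at 9.35 ± 1.91. For Alb the difference was larger, at 11.12 ± 2.38, and the median over the 21 hepatocyte markers was 10.13, so it was no mark of the chain genes. By edgeR the difference was called for none of the 6 genes and for 0.00% of all genes (Fgb adjusted p = 0.0983). An unadjusted p under 0.05 was found for 5 of the 6 and 851 of all genes. DESeq2 called 86 genes, among them Fga (6.50, adjusted p = 0.0157), Fgb (9.51, adjusted p = 0.00063) and Alb (11.16, adjusted p = 0.000144).

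Mean levels gave the following orders. Saa1 averaged 22.1 ± 19.7 CPM in splenic C26, 17.5 ± 14.0 in subcutaneous C26, 0.0909 ± 0.0789 in sham and 2.75 ± 5.04 in control (SD, n = 4 each), and of the neighbours by level (splenic C26, subcutaneous C26, control, sham) no pair passed the test. Fga averaged 1.87 ± 2.53 CPM in splenic C26, 2.1 ± 1.33 in subcutaneous C26, 0.103 ± 0.133 in sham and 10.6 ± 11.1 in control, and of its neighbours by level (control, subcutaneous C26, splenic C26, sham) splenic C26 and sham passed. Orm1 averaged 1.88 ± 1.25 CPM in splenic C26, 2.23 ± 1.51 in subcutaneous C26, 4.62 ± 5.04 in sham and 9.62 ± 5.83 in control, and no tested pair of neighbours by level passed. Levels of different genes can be set side by side only per length, which the deposited log2 values approximate. On that scale Saa1 averaged 4.40 ± 2.03 in splenic C26 and 4.20 ± 1.92 in subcutaneous C26, above Saa2 (2.49 ± 2.18 and 2.5 ± 1.53) and above each fibrinogen chain (-1.78 to -0.51). In control, Fgb (2.00 ± 1.65), Fgg (1.64 ± 1.65) and Fga (0.92 ± 1.81) lay below Alb (4.41 ± 1.34).

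Across the 16 libraries, log2 CPM of Saa1 and Saa2 correlated with r = 0.96, and Fga with Fgg with r = 0.96, while Fgb was at 0.84 with Fga and 0.89 with Fgg. The correlation with Alb was 0.84 for Fgb and -0.28 for Saa1. In the 8 tumour-free libraries all chain genes followed Alb at 0.97 to 0.98. In the 8 tumour libraries Fga, Fgb and Fgg followed Alb at 0.63, 0.69 and 0.71, and Fga and Fgb followed each other at 0.49. These values describe libraries that share group and depth, and carry no test. The genes most like the chain genes in pattern were liver transcripts. For Fga they were Serpina3k (0.923), Hpx, Hpd and Ahsg, for Fgb Bhmt (0.926), Gc, Ahsg, Apob and Apoa1, and for Fgg Hpx (0.952), Ahsg, Kng1, Gc and Bhmt. Saa1 was most like ribosomal protein and splicing genes, Rpl35a (0.942), Rps16, Rps21 and Prpf38a, and the protease inhibitor gene Serpina3n (0.937). Saa2 was most like Rpl35a (0.899), Timp1, Serpina3m, Itih3 and Cep57. For Orm1 the most similar were Adap1 (0.94), Acaca, Tkt, Tmem45b and Slc25a1, of which Acaca encodes acetyl-CoA carboxylase and Slc25a1 the mitochondrial citrate carrier of fatty acid synthesis. Orm1 was highest, among tumour-free libraries, in control replicates 1 and 2 and sham replicate 2, at 15, 14.2 and 12.1 CPM. The summed adipocyte markers were at 2040, 1070 and 2560 CPM in these libraries, 493 to 1000 CPM in the other sham libraries and 701 and 920 CPM in the other controls, and their part in the Orm1 values was not tested. Tumour libraries had adipocyte sums of 1310 to 2950 CPM and Orm1 at 4.33 CPM or less. Orm3, a close relative of Orm1 chosen after its values were seen, had 0.191 to 1.4 CPM in splenic C26 and 0.205 to 2.1 CPM in sham (log2 fold change -0.43 ± 0.74, adjusted p = 0.641).

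Other acute-phase genes were read in the same way. Of 31 such genes 24 were measured, and 14 were called higher and 1 lower in splenic C26 than in sham, with a median log2 fold change of 2.77. In subcutaneous C26 against control 11 were called higher and 5 lower, with a median of 0.88. Over all genes 28.1% were called higher and 23.9% lower in splenic C26, and 27.0% higher and 23.1% lower in subcutaneous C26. Genes high in both tumour groups included Serpina3n (6.18 ± 0.84 in splenic C26 and 4.91 ± 0.79 in subcutaneous C26), Lbp, which encodes the lipopolysaccharide-binding protein (2.1 ± 0.28 and 2.44 ± 0.28), and Lrg1 (3.43 ± 0.44 and 2.57 ± 0.43), all with adjusted p of at most 0.0004. Saa3, the amyloid gene known for expression outside the liver and named here after its values were seen, had 0.255 to 23.1 CPM in splenic C26 against 0 to 0.137 CPM in sham. In subcutaneous C26 it had 0.497 to 11.7 CPM, against 0 to 0.266 CPM in control, and the log2 fold changes were 7.67 ± 1.51 (adjusted p = 0.00106) and 5.84 ± 1.39 (adjusted p = 0.00361). Saa3 met the 0.5 CPM level of the table through tumour libraries alone, so these calls are a description. In control replicate 2, where Saa1 and Saa2 had 348 and 350 counts, Saa3 had 9. Hpx, the haem-binding hemopexin, and Serpina3k were called lower in subcutaneous C26 (-3.60 ± 1.27 and -2.23 ± 0.88), as the beta chain was. In splenic C26 the value was 3.52 ± 1.52 for Hpx (adjusted p = 0.0632) and 5.02 ± 1.12 for Serpina3k (adjusted p = 0.00229). Tfrc, the transferrin receptor gene, was called lower in both comparisons (-3.92 ± 0.29 and -3.01 ± 0.28).

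**Figure D5:**
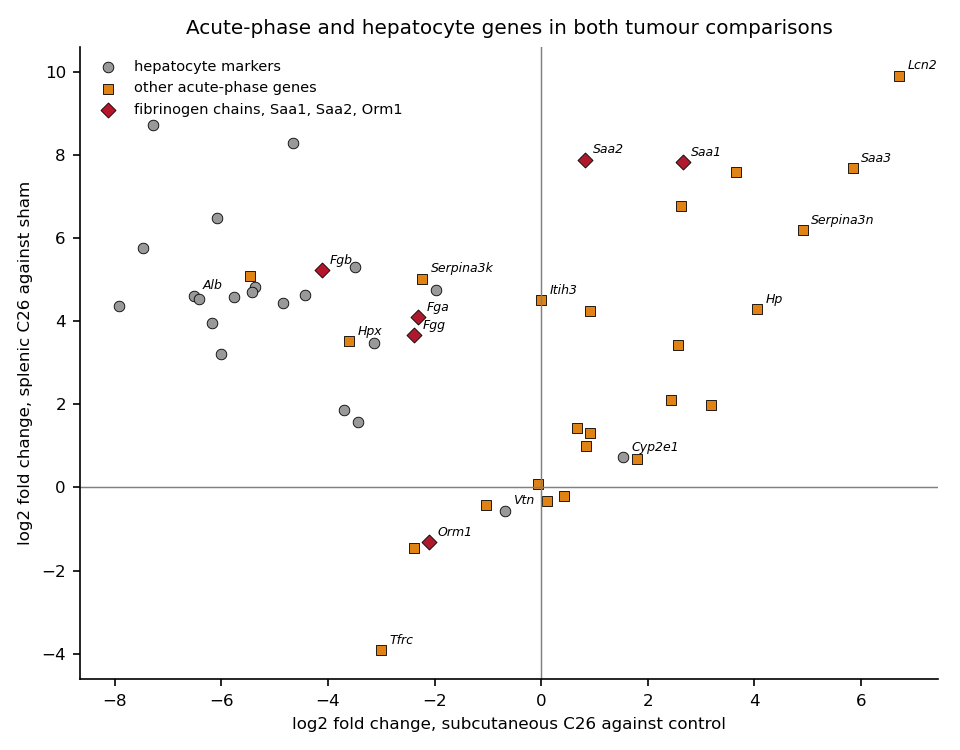
Log2 fold change in splenic C26 against sham (vertical) and in subcutaneous C26 against control (horizontal) for the 6 genes, 24 other acute-phase genes and 21 hepatocyte markers. Saa1 and Saa2 lie at 7.83 and 7.88 on the vertical axis, near Saa3, whereas Fga, Fgb and Fgg lie at the upper left with Alb and most hepatocyte markers.

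Signalling genes upstream of the acute-phase response were read from the same libraries. Of 19 measured genes of interleukin-6, interleukin-1 and STAT3 signalling, 10 were called higher and 2 lower in splenic C26, and 11 higher and 3 lower in subcutaneous C26. The STAT3 gene itself was higher by 2.5 ± 0.26 in splenic C26 and 2.19 ± 0.26 in subcutaneous C26, and the interleukin-6 receptor gene Il6ra by 3.94 ± 0.35 and 4.50 ± 0.36. Osmr, the oncostatin M receptor gene, was higher by 1.90 ± 0.22 in both. The ligand genes Il6, Osm and Il1b were not in the table used here. Of 18 coagulation and fibrinolysis genes 9 were called higher and 4 lower in splenic C26, and 3 higher and 9 lower in subcutaneous C26. F2, the gene of prothrombin, whose product cleaves fibrinogen, was at 2.29 ± 0.86 in splenic C26 (adjusted p = 0.0355) and -4.74 ± 0.87 in subcutaneous C26 (adjusted p = 0.000688), and antithrombin, Serpinc1, at 3.10 ± 1.09 and -5.14 ± 1.05. Their highest splenic C26 library had 1.44 and 1.40 CPM, against medians of 0.282 and 0.222 CPM in that group. The plasminogen activator genes Plat (-1.52 ± 0.34 and -1.30 ± 0.34) and Plau (-0.94 ± 0.30 and -1.38 ± 0.30) were called lower in both. Among 12 measured genes for fibrinogen and amyloid A receptors, 4 were called higher and 2 lower in splenic C26, and 5 higher and 3 lower in subcutaneous C26. Beside these 3 lists, 28.1% of all genes were called higher and 23.9% lower with the splenic tumour, and 27.0% higher and 23.1% lower with the subcutaneous tumour. Scarb1, which encodes the lipoprotein receptor SR-BI, was higher by 1.16 ± 0.17 and 0.78 ± 0.17, and the integrin gene Itgav lower (-0.78 ± 0.13 and -0.36 ± 0.13).

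Markers of other cells moved with some of these libraries. Of 12 neutrophil markers 10 were called higher in splenic C26, beside 28.1% of all genes. Their sum was 203 CPM in splenic C26 replicate 3, the library with the most Saa1, and 6.54 to 21.4 CPM in the other 3. It was 38.5, 30, 5.34 and 13 CPM in subcutaneous C26, 4.44 to 6.69 CPM in sham, and 54.7 CPM in control replicate 1 against 4.47 to 6.96 CPM in the other controls. The 3 measured red blood cell markers summed to 11.6 to 46 CPM in splenic C26 against 4.04 to 5.72 CPM in sham, and to 8.6 to 131 CPM in subcutaneous C26 against 3.7 to 14.1 CPM in control. Macrophage markers summed to 168 to 391 CPM in splenic C26 against 241 to 321 CPM in sham, and the proliferation and epithelial genes to 61.6 CPM in subcutaneous C26 replicate 4. Without splenic C26 replicates 1 and 3, control replicate 1 and subcutaneous C26 replicate 4 together, Saa1 (7.83, adjusted p = 0.00297) and Saa2 (7.74, adjusted p = 0.00682) were still called higher in splenic C26, and Saa1 stayed uncalled in subcutaneous C26 (1.77, adjusted p = 0.269). The remaining control libraries, also rich in liver-type transcripts, were kept in that fit. No pancreas, kidney or gut marker was in the table used here.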

How the data were processed

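Quadriceps RNA was sequenced as 75-base paired ends, and RNA isolation and sequencing took place together, per the labels' protocols. The authors deposited raw read counts per gene made with STAR and featureCounts, per the labels, and mm10, FastQC, STAR and edgeR are named in the submitters' processing notes. Neither versions nor the strand setting are given. A second deposited table held log2 values, which differed from log2 CPM by an offset for each gene and each library (residual SD 0.0018 over 8287 genes). The gene offset fell with exon length (r = -0.796 across 8038 genes), and the table served as an alternative and for levels per length. The count table held 13320 genes and 4013 lines naming no gene, left out here, and filterByExpr removed 0 genes. TMM factors were 0.802 to 1.21. The smallest chi-square per degree of freedom between libraries of 1 group was 13, and none was taken for a repeat.

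The main test was the quasi-likelihood test of edgeR 4.0.16 (R 4.3.3), with TMM scaling, a robust fit of 1 mean for each group over 16 libraries, and Benjamini-Hochberg adjustment over all genes (threshold 0.05). Simulated data served to test the scripts. Alternatives used DESeq2 1.42.0, limma 3.58.1, other scalings and filters, and omission of libraries. Ratios to Alb used a pseudocount of 0.5 and an exact permutation test. Intervals are 95% and, like the floor of 3 counts, cover counting error only. Named genes were the 6, Alb, the 4 smallest p of each of 16 lists per tumour comparison, all hepatocyte markers and the 5 most similar genes with a mean of at least 1 CPM. Some genes that the rule names are not reported here. Saa3, Orm3, Hp, Fgl1 and Lcn2 fall outside that rule and were chosen after their values were seen. The members and lists were chosen with earlier results of these data known. Replicate numbers name libraries and pair none.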

Additional observations from a re-analysis of the deposited data

Results flagged for a closer look

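In 7 of 24 groups of 4 libraries looked at (4 more with 12 or fewer counts were left out), 1 library stood apart from the other 3 by more than Dixon's 95% critical value for the gap over the range. For normally spread values in independent groups, chance sets a library apart in about 1 of 20. The groups looked at share libraries, and several have an SD near or above the mean, so that rate cannot be used to judge the 7. Splenic C26 replicate 1 stood apart for Fga at 5.62 CPM (others 0.144 to 1.05), Fgb at 6.38 CPM (0 to 0.903), Fgg at 4.15 CPM (0.0722 to 0.329) and Alb at 76.2 CPM (0.0388 to 0.611). Control replicate 2 stood apart for Saa1 at 10.3 CPM (0.0339 to 0.41) and Saa2 at 10.4 CPM (0.0363 to 0.231), with Alb at 67.7 CPM. Sham replicate 2 stood apart for Alb at 2.25 CPM (0.239 to 0.375).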

How the results depend on the processing

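No paired analysis was possible because the labels give no replicate numbers that pair libraries across groups. In splenic C26 against sham, Saa2 passed under all 20 alternatives (5.33 to 8.74) and Saa1 under 19 of 20 (6.46 to 8.62 over the 20). With limma-voom 1 of the 6 genes was called, and the values were 3.69 for Fga, 2.82 for Fgb, 2.40 for Fgg, 7.02 for Saa1 (adjusted p = 0.05) and 0.69 for Alb. With limma-trend on the deposited values 3 were called, with Fgb at 2.1, Fgg at 1.75 and Alb at 0.75. At an adjusted p under 0.01 there were 4408 genes and 2 of the 6, without Fga (4.10), Fgb (5.23), Fgg (3.66) and Alb (4.61). In 8 libraries only, Alb did not pass (4.6). With Alb as a covariate 4 of the 6 were called, and Fgg did not pass (1.53). Fga (3.14, adjusted p = 0.0235, edgeR) and Fgb (3.69, adjusted p = 0.0218) still passed in that fit. Without 4 libraries picked for transcripts of other tissues (2 of splenic C26, replicates 1 and 3, and replicate 1 of control with replicate 4 of subcutaneous C26) 2 were called, with Fga at 2.42, Fgb at 3.27, Fgg at 0.04 and Alb at -3.72. Control replicates 2, 3 and 4, with sums of the 19 hepatocyte markers at 190, 63.4 and 339 CPM, were kept, so this setting was not free of liver-type transcripts. Leaving out 1 library gave 2 to 5 called, 2.47 to 5.40 for Fga, 2.76 to 5.74 for Fgb, 0.82 to 4.21 for Fgg and -1.83 to 6.05 for Alb.

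In subcutaneous C26 against control, upper-quartile scaling (Fga -2.56), 8 libraries only (4 called, Fga -2.31, Fgg -2.38) and the removal of the 4 libraries (Fga -2.77, Fgg -2.97) brought further calls, and the last put Orm1 at -1.71 and Saa2 at -0.18. At 0.01, 4175 genes and 1 of the 6 were called, without Orm1 (-2.11). Limma-trend called Saa1 (4.14). With Alb as a covariate 967 genes and 0 of the 6 were called, with Fga at 0.55, Fgb at -0.82, Fgg at 1.69, Saa2 at -1.16 and Orm1 at -2.30. Leaving out 1 library gave 1 to 3 called, -2.68 to -1.38 for Fga, 2.1 to 6.14 for Saa1, 0.21 to 4.84 for Saa2 and -2.70 to -1.84 for Orm1. Upper-quartile scaling moved the median of all genes to -0.236 and -0.26 in the tumour comparisons, and the share of higher calls to 38.5% and 34.9%.

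In sham against control the number of genes called was 58 with DESeq2 (4 of the 6), 7 with limma-trend, 47 without the 4 libraries (3 of the 6), 0 with 8 libraries, at 0.01 or with Alb as a covariate, and 0 to 7 without 1 library (7 without control replicate 1). For splenic C26 against subcutaneous C26 it was 163 with DESeq2, 2 without the 4 libraries and 0 to 307 without 1 library, with 307 without splenic C26 replicate 1, 115 without replicate 2 and 244 without subcutaneous C26 replicate 3. There the signs of single genes turned. Fgb was at -0.57 and Saa2 at -0.23 with limma-voom, Fgb at -0.31 and Saa2 at -0.02 with limma-trend, and Fgb at -0.20 and Alb at -3.59 without the 4 libraries. Without 1 library the ranges were -1.79 to 0.21 for Fga, -0.72 to 2.16 for Fgb, -3.05 to 0.16 for Fgg, -0.21 to 0.84 for Saa1, -0.27 to 1.01 for Saa2, -0.64 to 0.33 for Orm1 and -1.52 to 5.33 for Alb. For the difference between tumour effects DESeq2 called 86 genes and 2 of the 6, leaving out 1 library gave 0 to 66 genes and 0 to 1 of the 6 (66 and Fgb without splenic C26 replicate 2), and Fgg was at -0.16 with Alb as a covariate.

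Ratios to the sum of all 21 hepatocyte markers, of which Cyp2e1 and Vtn made up most in libraries low in Alb, passed in splenic C26 against sham for Fga (2.63), Saa1 (6.11), Saa2 (5.72) and Orm1 (-2.01). In subcutaneous C26 against control they were -1.83 for Fga, -3.51 for Fgb, -2.14 for Fgg, 4.57 for Saa1, 3.11 for Saa2 and -2.02 for Orm1, and of these only Fgb passed (exact permutation p = 0.0286). Without Cyp2e1 and Vtn, a choice made after seeing the data, they were 2.96 for Fga, 1.28 for Fgb, 2.65 for Fgg and 2.77 for Orm1, each with an exact permutation p of 0.0571. With a pseudocount of 0.1 the ratio of Fgb to Alb was 2.49 (exact permutation p = 0.0571). With 1 library left out no ratio can reach an exact permutation p below 0.0571, so that check is void for ratios. Depth limits the low groups: 1 to 31 fibrinogen counts lay behind each sham library and 3 of the splenic C26 libraries, and the sham group held 12 counts of Saa1 and 3 of Saa2. The causes of these changes were not tested.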

Other observations

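Hp, the haemoglobin-binding haptoglobin, had 114, 356, 391 and 1700 CPM in splenic C26 libraries 1 to 4, against 7.76, 82, 22 and 18.6 CPM in sham libraries. In subcutaneous C26 it had 1250, 788, 326 and 549 CPM, against 48.6, 69.7, 42.8 and 15 CPM in control. Every tumour library lay above every library of its tumour-free group, and the log2 fold changes were 4.29 ± 0.88 (adjusted p = 0.00142, edgeR) and 4.05 ± 0.87 (adjusted p = 0.00196). Lcn2, which encodes the iron-siderophore binder lipocalin 2, reached 2320 CPM in splenic C26 and 417 CPM in subcutaneous C26, against at most 1.26 CPM in sham and 4.29 CPM in control. Fgl1, the fibrinogen-like 1 gene of liver, was low everywhere, at 0 to 0.621 CPM in splenic C26 against 0 to 0.0342 CPM in sham, and at 0.124 to 1.62 CPM in subcutaneous C26 against 0.0768 to 1.72 CPM in control. It passed in neither comparison (adjusted p = 0.0615 and 0.436).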
